A study of Mus musculus with 2 samples.

Results

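The miR-30 family comprises 6 hairpin genes, Mir30a, Mir30c-2, Mir30b, Mir30d, Mir30e and Mir30c-1, in 3 genomic clusters of the mouse. The hairpins were taken by gene symbol, as 6 of the 1973 microRNA genes counted, and all 6 were measured. Small RNA had been sequenced from whole forebrains of newborn mice (postnatal day 0, strain B6NCrl), 1 library from pup 3 and 1 from pup 1. Both pups belong to 1 group with no treatment or mutation named, so the data describe the family at birth and its spread between pups, with no contrast of conditions. Sex was not collected and litter was not stated, and the forebrain was not divided by region or cell type. In such bulk tissue, fewer cells of a type and less RNA per cell cannot be told apart.

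A microRNA is cut from a hairpin precursor whose arms, 5p and 3p, can each give a mature RNA. The mature RNA guides Argonaute proteins to messenger RNAs, mainly through its seed, bases 2 to 8 from the 5′ end, so microRNAs that share a seed share many possible targets. The miR-30 family is known for repressing Snai1, a driver of the epithelial-to-mesenchymal transition, and miR-30a is known to repress Bdnf, a neurotrophin of the brain. Mir30e and Mir30c-1 lie in introns of Nfyc, which encodes a subunit of the CCAAT-binding factor NF-Y.

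Sequences were read for 4 of the 6 hairpins, Mir30a, Mir30c-2, Mir30e and Mir30c-1, from RefSeq on GRCm38.p6; none is printed for Mir30b and Mir30d. The 5p arms are shown first because they carry the seed that defines the family, which stands in capitals. They are given with the 5p arm of Mir384, a hairpin of the X chromosome outside the family by name.
miR-30a-5p: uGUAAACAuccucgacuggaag
miR-30e-5p: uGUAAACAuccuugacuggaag
miR-30c-5p: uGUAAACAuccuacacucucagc
miR-384-5p: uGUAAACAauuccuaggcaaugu
The seed GUAAACA was found in the mature arms of 5 hairpins of the table, which held 1005 hairpins, namely the 4 hairpins above and Mir384. The arms of miR-30a-5p and miR-30e-5p differ by 1 substitution, C13U, counted from the 5′ end with the base of miR-30a first. Both share their first 12 bases with miR-30c-5p, and miR-384-5p shares 8 with miR-30a-5p.

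The sequence of miR-30c-5p is the same from Mir30c-1 and from Mir30c-2, while every other arm of these 4 hairpins matched no other hairpin of the table in full. The 3p arms are shown because they are what separates the hairpins where the 5p arms are alike, with bases 2 to 8 again in capitals.
miR-30a-3p: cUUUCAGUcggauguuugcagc
miR-30e-3p: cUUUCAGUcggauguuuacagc
miR-30c-1-3p: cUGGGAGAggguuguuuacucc
miR-30c-2-3p: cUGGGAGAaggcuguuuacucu
The miR-30a and miR-30e 3p arms differ by 1 substitution, G18A, with the base of miR-30a first. The 3p arms of Mir30c-1 and Mir30c-2 differ by 3, G9A, U12C and C22U, with the base of Mir30c-1 first.

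The hairpins of Mir30c-1 (chr4:120769534-120769622, minus strand) and Mir30c-2 (chr1:23291701-23291784, plus strand) are shown whole, since a read must reach outside the stretch they share to be placed at one of them. Capitals mark that stretch, the longest that either has in common with another hairpin of the table, at 28 bases.
Mir30c-1: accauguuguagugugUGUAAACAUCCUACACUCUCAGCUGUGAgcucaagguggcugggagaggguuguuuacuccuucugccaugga
Mir30c-2: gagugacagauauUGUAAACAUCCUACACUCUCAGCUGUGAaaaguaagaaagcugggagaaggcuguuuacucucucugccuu
The stretch holds the whole of miR-30c-5p. For Mir30a and Mir30e the longest common stretch is 18 bases, shorter than any of their mature arms.

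The clusters lie on chromosomes 4, 1 and 15 of GRCm38. Mir30e (ENSMUSG00000065409.1) occupies bases 120772606 to 120772697 of chromosome 4 on the minus strand, with its start 3072 bases from that of Mir30c-1 (ENSMUSG00000065490.1), and both are intronic in Nfyc on the same strand. Mir30a (ENSMUSG00000065405.2) occupies bases 23272269 to 23272339 of chromosome 1 on the plus strand, in no annotated host gene. Mir30c-2 (ENSMUSG00000065567.1) lies 19432 bases further and overlaps an exon of the noncoding gene Gm27028. Mir30d (ENSMUSG00000065437.1) occupies bases 68341208 to 68341289 of chromosome 15 on the minus strand and overlaps an exon of the noncoding gene Gm20732. Mir30b (ENSMUSG00000065476.2) occupies bases 68337415 to 68337510 of the same strand, in no annotated host, with its start 3793 bases from that of Mir30d.

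Depth was similar in the libraries. Pup 3 gave 7678662 reads assigned to microRNA genes of 18798326 reads in all, and pup 1 gave 9037087 of 22470992. Levels are counts per 1000000 assigned reads (CPM) of a hairpin, with both arms pooled. Reads tallied as mapping to several places, which belong to no gene, made up 43.5% of the library of pup 3 and 43.0% of that of pup 1. Of the listed microRNAs of other cells, neural Mir137 stood at 33595 CPM in pup 3 and 24345 CPM in pup 1. The 3 hairpins of Mir124a, defining of neurons, stood between 0.781 and 14.7 CPM in pup 3. In pup 1 they stood between 2.21 and 4.98 CPM. Reads that fit several of these hairpins would be in no gene's count, so these values are not levels of the mature microRNA. How many such reads there were was not tested.

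The family took 4.59% of the assigned reads in pup 3 (95% Clopper-Pearson interval 4.57 to 4.60) and 2.73% in pup 1 (2.72 to 2.74), a mean of 3.66% ± 1.32 (SD, n = 2). Almost all of these reads came from Mir30e, Mir30a and Mir30d, which together made up 99.1% of the family's reads in pup 3 and 98.3% in pup 1. By assigned reads, each cluster thus held 1 abundant hairpin and 1 far less abundant partner. Reads that map to both Mir30c-1 and Mir30c-2 would be left out of these shares. The cluster in Nfyc gave 55.0% of the family's reads in pup 3 and 50.7% in pup 1. The chromosome 1 cluster gave 24.97% in pup 3 and 24.99% in pup 1, and the chromosome 15 cluster gave 20.1% in pup 3 and 24.3% in pup 1. Intervals cover counting error only, since reads without molecular identifiers need not be independent molecules.

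**Figure D1:**
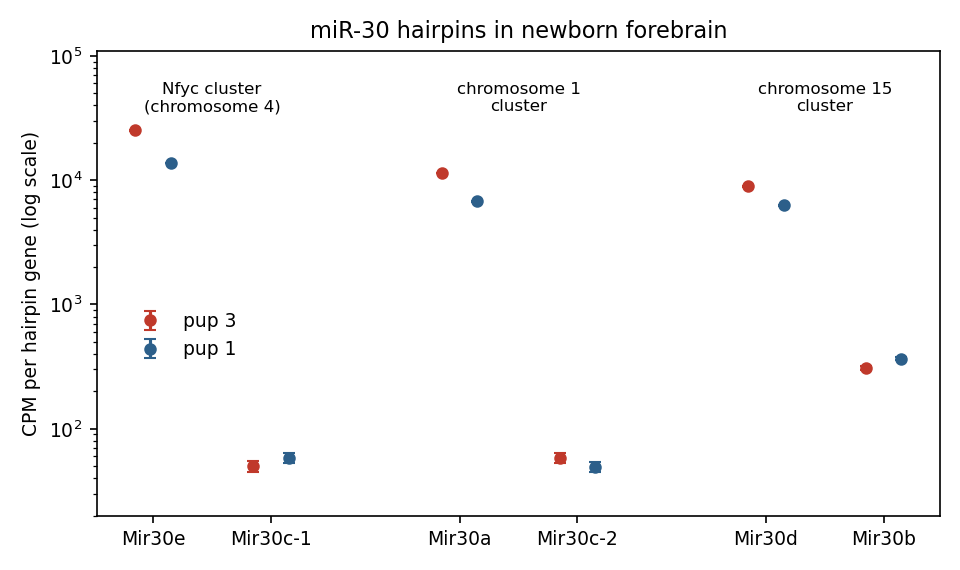
CPM of each miR-30 hairpin (y axis, log scale) in pup 3 and pup 1, with hairpins grouped by cluster on the x axis; points are single libraries and bars are 95% Clopper-Pearson intervals, hidden by the points where narrow. Mir30e, Mir30a and Mir30d sit between 6261 and 25172 CPM, while their partners sit between 49.4 and 367 CPM.

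Mir30e, whose 5p product carries the family seed, was the most abundant member, with 193289 reads or 25172 CPM in pup 3 and 124399 reads or 13765 CPM in pup 1. Ranked by assigned reads, which leave out those mapping to several places, it was 8th among all genes in pup 3 and 13th in pup 1. Its level in pup 3 was the higher, and the counting intervals of the pups did not overlap (25062 to 25283 CPM in pup 3, 13690 to 13842 CPM in pup 1). All reads of Mir30e were counted on its own strand. The annotation places another hairpin, Mir30f, on the strand opposite to it, where 0 reads were counted in either pup. A count of 0 allows up to 3 counts, or 0.391 CPM in pup 3 and 0.332 CPM in pup 1.

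Mir30a, which gives the arm known to act on Bdnf, had 87532 reads or 11399 CPM in pup 3 and 61130 reads or 6764 CPM in pup 1, and ranked 19th in pup 3 and 31st in pup 1. Mir30d had 68327 reads or 8898 CPM in pup 3 and 56582 reads or 6261 CPM in pup 1, and ranked 23rd in pup 3 and 35th in pup 1. These hairpins were neighbours in the order of levels, and their ranges over the pups overlapped. Within each library Mir30a was still the higher, 1.28-fold in pup 3 and 1.08-fold in pup 1. The ranges of Mir30e and Mir30a did not overlap, with means of 19469 ± 8066 and 9082 ± 3277 CPM (each SD, n = 2).

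The other members stood far below. Mir30b, the partner of Mir30d on chromosome 15, had 2381 reads or 310 CPM in pup 3 and 3321 reads or 367 CPM in pup 1, and ranked 154th in pup 3 and 152nd in pup 1. Mir30c-1, the partner of Mir30e, had 384 reads or 50.01 CPM in pup 3 (interval 45.1 to 55.3) and 527 reads or 58.3 CPM in pup 1 (53.4 to 63.5). Mir30c-2, the partner of Mir30a, had 450 reads or 58.6 CPM in pup 3 (53.3 to 64.3) and 446 reads or 49.4 CPM in pup 1 (44.9 to 54.2). Mir30b was therefore above both Mir30c hairpins with no overlap, while Mir30c-1 and Mir30c-2 changed places between the pups. Their means, 54.2 ± 5.87 and 54.0 ± 6.54 CPM (SD, n = 2), did not differ beyond that spread. Both hairpins together held 834 assigned reads in pup 3 and 973 in pup 1. That was 0.237% of the family's assigned reads in pup 3 and 0.395% in pup 1. Reads of miR-30c-5p that map to both hairpins would be in neither count, so these shares are not those of mature miR-30c.

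A ratio of partners within 1 library needs no scaling between libraries. Mir30e exceeded Mir30c-1 by 503-fold in pup 3 (95% exact interval 455 to 558) and by 236-fold in pup 1 (217 to 258). Mir30a exceeded Mir30c-2 by 195-fold in pup 3 (177 to 214) and by 137-fold in pup 1 (125 to 151). Mir30d exceeded Mir30b by 28.7-fold in pup 3 (27.5 to 29.9) and by 17.04-fold in pup 1 (16.5 to 17.6). In each cluster the gap was wider in pup 3 than in pup 1, beyond counting error. On the log2 scale the mean ratios were 8.43 ± 0.77, 7.35 ± 0.36 and 4.47 ± 0.53 for these pairs, in the same order (SD, n = 2). The ratios compare reads of whole hairpins and are not levels of the mature microRNAs. Reads of miR-30c-5p, whose sequence fits both Mir30c hairpins, were not traced here, and how many of the reads mapping to several places they make up was not tested.

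Other neighbouring hairpins served as a yardstick, chosen after these values were seen. Of genes averaging at least 10 CPM over the pups, 99 other pairs lay next to each other on 1 strand within 20000 bases. Their abundant hairpin exceeded its partner by a median of 4.01-fold in mean CPM (quartiles 1.97 and 12.2). A gap at least as wide as that of Mir30e and Mir30c-1 occurred in 1 of these pairs, Mir487b over Mir539 of the imprinted region on chromosome 12. A gap at least as wide as that of Mir30a and Mir30c-2 occurred in 3, and at least as wide as that of Mir30d and Mir30b in 16. The minimum of 10 CPM removes the pairs whose weaker hairpin is scarce, which include some of the widest gaps, such as Mir181a-1 over Mir181b-1 at 884-fold. With a weaker partner down to 3 counts in each library there were 120 other pairs, with a median gap of 7.53-fold (quartiles 2.37 and 29.9). Of these, 5 had a gap at least as wide as that of Mir30e and Mir30c-1, 8 as that of Mir30a and Mir30c-2 and 37 as that of Mir30d and Mir30b. The gap of Mir30d and Mir30b was thus within the quartiles of that wider list. Pairs of 1 cluster share hairpins, so they are not independent of each other.

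Relative to all genes, the abundant members were higher in pup 3 than in pup 1, and their partners differed less. Mir30e was 2.10-fold higher, or 1.07 on the log2 scale (1.06 to 1.08, the 95% exact binomial interval for counting error). Mir30a was 1.94-fold higher, a log2 ratio of 0.95 (0.94 to 0.97). Mir30d was 1.63-fold higher, a log2 ratio of 0.71 (0.69 to 0.72). Mir30c-2 had a log2 ratio of 0.45 (0.26 to 0.64), and the intervals of Mir30b, at -0.04 (-0.12 to 0.03), and Mir30c-1, at -0.02 (-0.22 to 0.17), included 0. These ratios were scaled by TMM factors, and each sets 1 library against another, so they carry no test of a difference between animals.

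At a fold of 1.5, 3 of the 6 members were higher in pup 3, where 17.4% of the 310 genes averaging at least 10 CPM were. None was lower by that fold, against 15.5% of these genes. The median log2 ratio was 0.58 over the members and -0.03 over the 310 genes (quartiles -0.36 and 0.35). Scaled by total assigned reads, every ratio was lower by 0.20 on the log2 scale, so that the median over the members was 0.38 and that over all genes was -0.23. Then 2 members, Mir30e at 1.83-fold and Mir30a at 1.69-fold, were higher by 1.5-fold and Mir30d was at 1.42-fold, where 12.3% of all genes were higher and 23.5% lower. Mir30b and Mir30c-1 had -0.24 and -0.22 under that scaling.

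**Figure D2:**
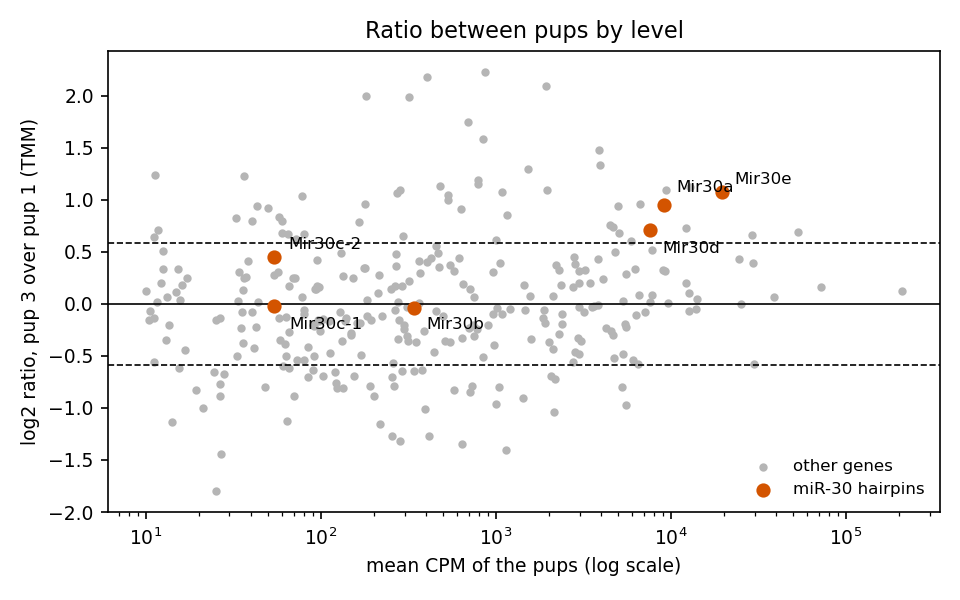
Log2 ratio of pup 3 over pup 1 (y axis, TMM scaling) against the mean CPM of the pups (x axis, log scale) for the 310 genes that averaged at least 10 CPM; dashed lines mark 1.5-fold. Mir30e, Mir30a and Mir30d lie above the upper line, and Mir30b, Mir30c-1 and Mir30c-2 between the lines.

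The level of a gene and its ratio were set side by side over all genes, since the abundant members were also those with the higher ratios. The median log2 ratio was -0.08 over 96 genes with a mean from 10 to below 100 CPM, the range of both Mir30c hairpins. It was -0.12 over 112 genes from 100 to below 1000 CPM, the range of Mir30b, and 0.00 over 85 genes from 1000 to below 10000 CPM, the range of Mir30a and Mir30d. Over the 17 genes at 10000 CPM or more, Mir30e among them, it was 0.16 (quartiles 0.05 and 0.66), and 13 of the 17 were above 0. The ratios of Mir30e, Mir30a and Mir30d were thus above the upper quartile of their ranges of level, the last being 0.39 for Mir30a and Mir30d.

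The log2 ratio of the abundant hairpin was above that of its partner by 1.09 for Mir30e and Mir30c-1, by 0.75 for Mir30d and Mir30b and by 0.51 for Mir30a and Mir30c-2. Such differences do not depend on the scaling. Among the 99 other neighbouring pairs the median of this difference was -0.0019 (quartiles -0.38 and 0.48), and in 49 the abundant hairpin had the higher ratio. A difference at least as large in either direction occurred in 11, 28 and 45 of these pairs for the 3 miR-30 clusters in the order above. Partners that part by as much as those of the miR-30 clusters were therefore common elsewhere, least so for the cluster in Nfyc.

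**Figure D3:**
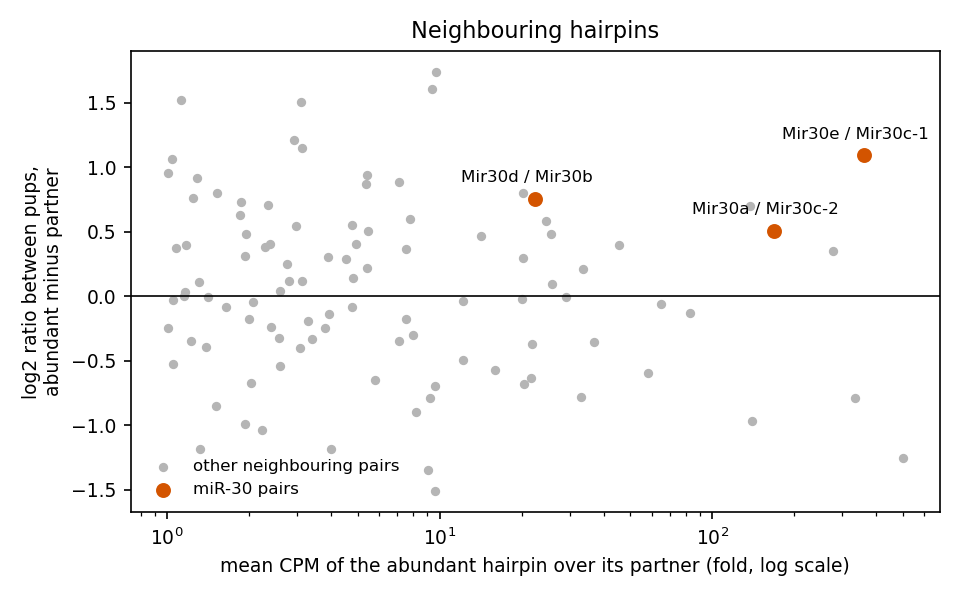
Difference in the log2 ratio between pups, abundant hairpin minus partner (y axis), against the fold between their mean CPM (x axis, log scale) for the 102 pairs of neighbouring hairpins that both average at least 10 CPM; orange points are the 3 miR-30 pairs. The miR-30 pairs lie to the right, at 22.4-fold to 359-fold, and above 0.

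The listed microRNAs of other cell types also differed between the libraries, and their part in the ratios of the family was not tested. The 6 listed epithelial hairpins, of which all were detected, summed to 11704 CPM in pup 3 and 4066 CPM in pup 1, with log2 ratios from 1.13 to 2.23. Of the 7 listed neural hairpins, 6 were measured (Mir9-1 was not analysed here) and summed to 34299 CPM in pup 3 and 24738 CPM in pup 1. Nearly all of that sum was Mir137, at 33595 CPM in pup 3 and 24345 CPM in pup 1. The log2 ratios of the 6 ran from -1.22 for Mir124a-2 to 1.75 for Mir124a-1, both averaging below 10 CPM. Only Mir137 and Mir9-3 of the 6 averaged at least 10 CPM, with log2 ratios of 0.66 and 1.04. Endothelial Mir126a had a log2 ratio of 0.06, mural Mir143 of 0.03 and choroid plexus Mir204 of -0.26. Erythroid Mir451a stood at 350 CPM in pup 3 and 192 CPM in pup 1. Mir223 of blood cells and microglia stood at 144 CPM in pup 3 and 118 CPM in pup 1. Mir142 of that list was not analysed here under that name. A gene named Mir142b, outside the list, stood at 340 CPM in pup 3 and 249 CPM in pup 1. Mir122 of liver stood at 75.01 CPM in pup 3 and 54.0 CPM in pup 1. The listed muscle hairpins Mir1a-1 and Mir133a-1 had 0 assigned reads in both. Other muscle hairpins, outside the list, did have reads. Mir206 stood at 44.5 CPM in pup 3 and 94.8 CPM in pup 1, and Mir208b at 31.9 and 63.8 CPM. Mir1b went the other way, at 6.77 CPM in pup 3 and 3.21 CPM in pup 1. Reads mapping to several places are in no gene's count, so the counts of 0 set no limit on the mature microRNAs or on muscle RNA.

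Mir384, whose 5p arm has the miR-30 seed, stood above Mir30b in both pups, and their ranges did not overlap. It had 3842 reads or 500 CPM in pup 3 and 4056 reads or 449 CPM in pup 1, a mean of 475 ± 36.4 CPM (SD, n = 2). Its log2 ratio of pup 3 over pup 1 was 0.36 (0.29 to 0.42). With it, hairpins that carry this seed or bear the family name took 4.64% of such reads in pup 3, against 2.77% in pup 1.

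Hairpins with a shared 5p arm were also set beside those with arms of their own in other families spread over several loci. In the miR-26 family, whose members lie within genes of Ctdsp phosphatases, Mir26b has arms of its own and stood at 12630 ± 571 CPM. Mir26a-1 and Mir26a-2, which give the same miR-26a-5p, stood at 10.5 ± 1.42 and 56.7 ± 3.05 CPM. In the miR-181 family, also of 6 hairpins in 3 clusters, Mir181a-1 shares miR-181a-5p with Mir181a-2, yet it stood at 7826 ± 457 CPM and Mir181a-2 at 83.8 ± 24.9 CPM. Mir181b-1 and Mir181b-2, which share miR-181b-5p, stood at 8.86 ± 1.10 and 788 ± 368 CPM, while Mir181c and Mir181d, with arms of their own, stood at 12116 ± 26.5 and 4659 ± 1221 CPM (each SD, n = 2). Of the 8 hairpins with a shared arm in these families, 7 had a mean below 1000 CPM, and all 5 with arms of their own had a mean above it. Mir30b and Mir30d, with no sequence read, are in neither count. Of the 310 genes averaging at least 10 CPM, 67.1% lay below 1000 CPM, so such a level was common among them. Mir181b-1, at 8.86 CPM, is in the count above but not among these 310. The part of a shared arm in the level was not tested.

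The spread between pups also differed in size among the families. Of the assigned reads, the miR-181 family took 2.62% in pup 3, against 2.47% in pup 1, and the miR-26 family 1.23% in pup 3 and 1.31% in pup 1. Under TMM scaling the summed family was 1.93-fold higher in pup 3 for miR-30, 1.22-fold for miR-181 and 1.08-fold for miR-26. With 1 library a pup, a difference among these folds was not tested.

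**Figure D4:**
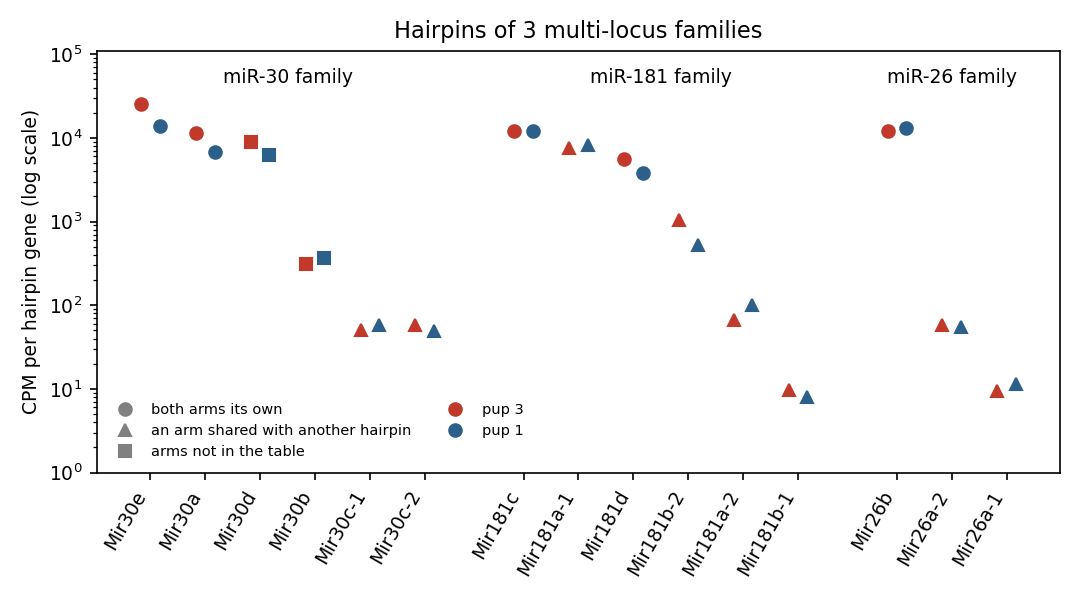
CPM (y axis, log scale) of each hairpin of the miR-30, miR-181 and miR-26 families in pup 3 and pup 1; circles are hairpins whose mature arms match no other hairpin, triangles share an arm with another, and squares are hairpins with no sequence read. Mir30c-1 and Mir30c-2 lie between 49.4 and 58.6 CPM, near Mir26a-2. Both lie below Mir181a-2, which is at 66.2 CPM in pup 3 and 101.4 CPM in pup 1. Mir181a-1 is the triangle at 7503 CPM in pup 3 and 8149 CPM in pup 1.

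The genes nearest to each member were found by Euclidean distance over log2(CPM + 1) in the 2 pups, and with so few libraries this says only that levels were alike. Mir15a was nearest to Mir30a, at a distance of 0.11, with 12220 CPM in pup 3 and 6593 CPM in pup 1, followed by Mir30d itself at 0.37. Mir708 was nearest to Mir30d at 0.15, followed by Mir93 at 0.36. Mir30e had no neighbour as close, with Mir130a at 0.72 and Mir17 at 0.87. Mir29c and Mir488 were nearest to Mir30b, at 0.16 and 0.19. Mir155 and Mir26a-2 were nearest to Mir30c-2, at 0.12 and 0.14, and Mir7689 and Mir155 to Mir30c-1, at 0.14 and 0.21.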

How the data were processed

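The authors deposited 1 table of whole-number counts of reads per microRNA gene for each library, derived from alignments on mm10 with annotation M4, per the notes beside the tables, with an aligner and counting tool not given in the sources used here. Levels come from the first count column, which equals the sum of both strand columns in all 1973 genes; of these, the one with nearly all reads of abundant genes was read as sense. Tallies that name no gene stayed out of library sizes. As shares of all reads, those mapping to several places, unmapped and in no gene were 43.5%, 14.4% and 1.26% in pup 3, and 43.0%, 14.9% and 1.85% in pup 1; none was ambiguous. Reads mapping to several places are in no gene's count, so hairpins with copies can be undercounted.

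Names and positions came from GENCODE M21 (GRCm38) by gene identifier, with 1894 of 1973 matched. Ratios of pup 3 over pup 1 used counts plus 0.5 and TMM factors of edgeR 4.0.16 (0.933 for pup 3, 1.07 for pup 1), and the ratio step was tested on simulated data. With 1 group no test of a contrast was made. Alternatives were total reads, size factors of DESeq2 1.42.0, sense reads, other folds and minimums, and each pup alone. Named genes were the members, the comparison families, genes with the seed and the 2 nearest genes to each member, beside a fixed list of microRNAs of other cell types. Outside that rule, Mir30f was named from the annotation, and the comparison of neighbouring pairs, with Mir487b and Mir539, was chosen after values were seen. Mir206, Mir208b, Mir1b and Mir142b were likewise named after values were seen. The members and lists were chosen with earlier results of these data known. Computation used R 4.3.3 with Python 3.11.15.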

Additional observations from a re-analysis of the deposited data

How the results depend on the processing

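With each pup alone the family's share ranged from 2.73% to 4.59%, and the log2 ratio within a cluster from 7.88 to 8.98 for Mir30e over Mir30c-1, 7.10 to 7.60 for Mir30a over Mir30c-2 and 4.09 to 4.84 for Mir30d over Mir30b. Sense reads alone gave a share of 3.74% and the same ratios within clusters. With all reads of the library as the denominator the family's share was 1.49% and the CPM of all 6 members were lower, which follows from the larger denominator. At 2-fold, 1 member, Mir30e, was higher in pup 3, against 7.74% of all genes higher and 3.87% lower, and at a log2 ratio of 0.32 or more 4 members were, against 27.7% of genes that far higher and 28.1% lower. With total assigned reads, 23.5% of genes were at least 1.5-fold lower. No member was 1.5-fold lower in pup 3 under any scaling tried, and none of the ratios past 1.5-fold changed direction. In an alternative chosen after seeing the data, a weaker partner down to 3 counts was allowed in place of 10 CPM. Other pairs with a gap at least as wide then numbered 5 in place of 1 for Mir30e and Mir30c-1. They numbered 8 in place of 3 for Mir30a and Mir30c-2, and 37 in place of 16 for Mir30d and Mir30b. More pairs enter, and some hairpins are paired with another neighbour, since pairs are adjacent only among the genes kept. A count of members past a fold could not be had from 1 pup. No paired analysis was possible because there is 1 group. Each SD rests on 2 values.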
